A study of Rattus norvegicus with 18 samples.

Results

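Slc2a1, Hk2, Gapdh and Ldha, 4 genes of glucose uptake and glycolysis, were followed through the retinae of healthy and diabetic rats. They were chosen by gene number (ENSRNOG00000007284 for Slc2a1, ENSRNOG00000006116 for Hk2, ENSRNOG00000018630 for Gapdh and ENSRNOG00000013009 for Ldha) as a transporter and 3 enzymes of 1 pathway, by a rule that uses none of their values. All 4 were present among the 32623 genes of the table, and all 4 were among the 16524 genes that passed the filter on low counts. The symbols come from the choice of gene numbers, since the tables used here pair no gene number with a symbol.

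The study sequenced RNA from the retinae of 18 male Wistar rats, 6 in each of 3 groups. Healthy control animals (NC) were age-matched and carried placebo as their treatment in the sample labels. Diabetic control animals (DC) had been made hyperglycemic at 8 weeks of age by 35 mg/kg intravenous streptozotocin, which destroys the beta cells that make insulin, and also carried the label placebo. They counted as diabetic when blood glucose exceeded 14 mmol/L 1 week later. Diabetic animals on lixisenatide (DC + Lixi) had the same induction and received 150 µg/kg of this GLP-1 receptor agonist under the skin on 5 days a week from week 1. Retinae were taken 12 weeks after the induction in the diabetic groups and at the matching age in NC. The model is thus one of insulin lack, and each library stands for 1 animal and the whole retina, so fewer cells of a type and less RNA per cell cannot be told apart. The retinal cell type markers could not be looked up by symbol and were not checked here.

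Cells take up glucose through facilitative transporters, trap it as glucose 6-phosphate, split it and oxidise it to pyruvate. The retina, and the photoreceptors in particular, is known for aerobic glycolysis, in which much of the pyruvate is turned into lactate although oxygen is present. Slc2a1 encodes the transporter GLUT1 of the blood-retinal barrier, photoreceptors and glia, Hk2 encodes hexokinase 2, which phosphorylates glucose and is found in photoreceptors, Gapdh encodes the dehydrogenase of the middle of the pathway, and Ldha encodes the lactate dehydrogenase subunit that favours pyruvate to lactate. Gapdh is also a common reference gene in expression work.

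The promoters are shown because Slc2a1, Hk2 and Ldha are textbook targets of the hypoxia-inducible factor HIF-1, so that the letters before their starts bear on genes that are often treated as 1 programme. The windows are those of RefSeq on the rat assembly GRCr8, from 250 bases before to 50 bases after the start of each gene, 300 bases in all. Both strands were searched for ACGTG (a form of the core of HIF-1 elements), CACGTG (the E-box, which holds ACGTG on both strands), GGGCGG (the GC box) and TATAAA. Matches are printed in capitals. The term HIF core stands below for ACGTG alone, and other forms of that core, such as GCGTG, were not searched. No genome build of the expression tables is given in the sources used here. These coordinates therefore belong to the RefSeq windows alone.
Slc2a1 (chr5:138002272-138002571, plus strand): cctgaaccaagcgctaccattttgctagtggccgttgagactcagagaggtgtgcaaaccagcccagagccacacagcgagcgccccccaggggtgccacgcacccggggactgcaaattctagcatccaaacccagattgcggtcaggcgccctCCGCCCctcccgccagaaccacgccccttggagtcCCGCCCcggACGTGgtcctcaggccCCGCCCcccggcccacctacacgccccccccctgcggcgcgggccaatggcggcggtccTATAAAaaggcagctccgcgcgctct
Hk2 (chr4:116841226-116841525, minus strand): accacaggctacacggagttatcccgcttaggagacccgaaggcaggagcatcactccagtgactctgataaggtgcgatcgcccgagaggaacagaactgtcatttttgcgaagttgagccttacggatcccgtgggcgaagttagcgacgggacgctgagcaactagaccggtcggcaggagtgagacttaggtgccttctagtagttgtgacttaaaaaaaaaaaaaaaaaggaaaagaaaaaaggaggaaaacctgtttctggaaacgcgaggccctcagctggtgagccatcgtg
Gapdh (chr4:159652418-159652717, minus strand): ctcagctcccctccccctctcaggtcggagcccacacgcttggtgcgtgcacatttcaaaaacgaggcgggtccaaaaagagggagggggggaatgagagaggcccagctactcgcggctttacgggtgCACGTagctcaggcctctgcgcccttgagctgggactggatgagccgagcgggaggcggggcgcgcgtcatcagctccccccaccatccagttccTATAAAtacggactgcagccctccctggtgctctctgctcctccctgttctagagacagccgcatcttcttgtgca
Ldha (chr1:106507842-106508141, plus strand): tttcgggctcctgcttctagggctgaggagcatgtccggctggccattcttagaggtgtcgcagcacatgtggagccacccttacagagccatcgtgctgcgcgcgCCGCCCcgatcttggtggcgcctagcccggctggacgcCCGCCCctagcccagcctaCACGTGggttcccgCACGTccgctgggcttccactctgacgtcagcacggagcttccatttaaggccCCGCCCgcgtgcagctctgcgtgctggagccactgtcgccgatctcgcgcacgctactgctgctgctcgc

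Positions are those of the first base of a match on the printed strand, counted from the start of the gene. Slc2a1 held 1 HIF core at -51, 3 GC boxes at -95, -60 and -35, and TATAAA at 25. Ldha held an E-box at -87, whose letters are the HIF core on both strands, a further HIF core at -73 and 3 GC boxes at -144, -106 and -20. Gapdh held 1 HIF core at -121 and TATAAA at -26. The Hk2 window held none of the 4 motifs. Among 33469 rat promoter windows of the same length the HIF core stood in 19.3%, the E-box in 6.42%, the GC box in 33.1% and TATAAA in 14.2%. GC content was 68.3% in Slc2a1, 66.7% in Ldha, 62.3% in Gapdh and 51% in Hk2, against a median of 51.7% over all windows. These are matches of letters, and factor binding was not measured in the libraries analysed here. The annotated Gapdh gene of RefSeq spans 159648592 to 159653436 on chromosome 4, so this Gapdh window lies inside the outer bounds of the annotated gene, while the windows of the other 3 genes begin outside them.

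Library totals ran from 28311699 to 39131683 counts with a median of 32379246, deep enough for 5523 or more counts of each gene in every library. The values of Slc2a1 were whole counts, within a tolerance of 1e-06, in 18 of 18 libraries. Those of Hk2, Gapdh and Ldha were estimates that were not whole in 18 of 18 libraries, so reads may have been divided between these genes and near-identical copies, and their levels are uncertain to that extent. The RNA integrity number, which scores how intact the RNA is, was 9.35 ± 0.105 in DC (SD, n = 6), 8.77 ± 0.103 in NC and 8.9 ± 0.335 in DC + Lixi. It did not overlap between DC and NC (exact permutation test, two-sided, n = 6 per group, p = 0.00216, adjusted p = 0.013 over 6 comparisons of library measures). It was also lower in DC + Lixi than in DC, with overlap (exact permutation test, two-sided, n = 6 per group, p = 0.013, adjusted p = 0.0195). RNA concentration averaged 327 ng/µl in NC, 537 ng/µl in DC and 587 ng/µl in DC + Lixi, and NC was lower than each diabetic group (exact permutation tests, adjusted p = 0.0195 for each). The part of RNA quality and yield in the gene results was not tested beyond the fits and values given below.

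All 4 genes were strongly expressed in the retina, and they stood in the same order in every library. FPKM values, which are counts scaled to the length of the gene model and to the total of the library, allow levels to be compared between genes. The mean level over the 18 libraries was 1451 FPKM for Gapdh, 663 FPKM for Ldha, 130 FPKM for Hk2 and 86.3 FPKM for Slc2a1. Gapdh ranked 21st and Ldha 44th of the 16524 genes tested, whereas Hk2 ranked 460th and Slc2a1 779th. The order Gapdh, Ldha, Hk2, Slc2a1 held in 18 of 18 libraries. The last pair was the closest, since the level of Hk2 was 1.53 times that of Slc2a1 on average and came as low as 1.15 times in DC animal 430.

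Slc2a1, the uptake step, was measured at similar levels in the 3 groups. CPM, the count of a gene scaled to the library total with TMM factors, is used from here on to compare groups within a gene. In NC, Slc2a1 ran from 202.0 CPM through a median of 239 to 269.8. In DC it ran from 185.1 through 209 to 289.2 CPM, and in DC + Lixi from 193.4 through 211 to 241.5 CPM. The groups overlapped, and 5 of 6 DC animals and 5 of 6 DC + Lixi animals lay below the NC median. The highest of all 18 values belonged to DC animal 425, far above the next DC animal at 219.4 CPM.

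The mean level of Slc2a1 was 236.6 ± 27.0 CPM in NC, 218.5 ± 36.6 CPM in DC and 212.2 ± 16.5 CPM in DC + Lixi (SD, n = 6). The fitted difference of DC from NC was -0.11 on the log2 scale (SE 0.09, edgeR quasi-likelihood test, adjusted p = 0.437), with a 95% interval of the fold from 0.807 to 1.06. In DC + Lixi against NC it was -0.16 (SE 0.09, edgeR adjusted p = 0.376), and against DC it was -0.04 (SE 0.09, edgeR adjusted p = 0.884). None of the 3 differences passed the threshold of an adjusted p under 0.05. The first of them depended on DC animal 425. Without it the difference of DC from NC was -0.21 (SE 0.07, edgeR adjusted p = 0.0491), which passes, and that of DC + Lixi from DC turned to 0.05 (edgeR adjusted p = 0.736). With RNA integrity as a covariate the difference of DC from NC was -0.02 (SE 0.15, edgeR adjusted p = 0.966). Integrity did not overlap between DC and NC, and this fit was less precise than the main fit (SE 0.09). Without either NC animal 432 or DC animal 396 the difference of DC from NC was -0.07.

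Hk2, the step that traps glucose in the cell, showed the widest spread among animals and the largest difference between groups of the 4 genes. In NC, Hk2 ran from 607.4 CPM through a median of 665 to 905.4. In DC it ran from 486.6 through 593 to 814.5 CPM, and in DC + Lixi from 623.6 through 855 to 918.3 CPM. In DC, 4 of 6 animals lay below every NC animal. In DC + Lixi, 4 of 6 animals (388, 401, 418 and 419) lay above every DC animal and 6 of 6 lay above the DC median, while animals 403 and 428 lay within the DC range.

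The mean level of Hk2 was 695 ± 109 CPM in NC, 626 ± 113 CPM in DC and 799 ± 128 CPM in DC + Lixi (SD, n = 6). The fitted difference of DC from NC was -0.15 on the log2 scale (SE 0.13, edgeR adjusted p = 0.449), and the interval of the fold reached from 0.750 to 1.08. This value was -0.06 without NC animal 431, -0.09 without DC animal 430 and -0.24 without DC animal 425. With RNA integrity as a covariate it was -0.06 (SE 0.21). It passed in none of these fits (edgeR adjusted p from 0.165 to 0.929). In DC + Lixi against NC it was 0.20 (SE 0.13, edgeR adjusted p = 0.398). In DC + Lixi against DC it was 0.35 (SE 0.13), a fold of 1.28 with a 95% interval from 1.06 to 1.53. This last difference had an unadjusted p of 0.0115 in the edgeR fit and an adjusted p of 0.291 over all genes tested, so it did not pass. In size it exceeded 91.0% of the 16524 genes in that comparison. With RNA integrity, which also differed between these groups, as a covariate it was 0.28 (SE 0.18, edgeR adjusted p = 0.759). Without DC animal 425 it was 0.44 (edgeR adjusted p = 0.0933). These were the highest and the lowest adjusted p among all settings tried.

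Gapdh, the dehydrogenase of the middle of the pathway, had nearly the same mean in NC and DC. In NC, Gapdh ran from 1197.5 CPM through a median of 1436 to 1614.0. In DC it ran from 1321.7 through 1403 to 1527.1 CPM, and in DC + Lixi from 1469.5 through 1499 to 1657.7 CPM. All DC values lay within the NC range. In DC + Lixi, 6 of 6 animals lay above the medians of both other groups and 2 of 6, animals 401 and 428, lay above every animal of those groups.

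The mean level of Gapdh was 1419 ± 182 CPM in NC, 1408 ± 77.4 CPM in DC and 1543 ± 84.7 CPM in DC + Lixi (SD, n = 6). The fitted difference of DC from NC was -0.01 on the log2 scale (SE 0.07, edgeR adjusted p = 0.937), with an interval of the fold from 0.897 to 1.10. In DC + Lixi it was 0.12 against NC (SE 0.07, edgeR adjusted p = 0.358) and 0.13 against DC (SE 0.07, edgeR adjusted p = 0.443). None passed the threshold, and the intervals of the last 2 reached up to 1.20-fold and 1.21-fold. The difference of DC + Lixi from NC was 0.08 without NC animal 433. It was 0.16 without NC animal 437 (edgeR, unadjusted p = 0.0311, adjusted p = 0.204). The difference of DC + Lixi from DC was 0.07 with RNA integrity as a covariate (SE 0.10). The difference of DC from NC, close to 0, changed sign when single animals were left out and lay between -0.06 (without NC animal 433) and 0.03 (without NC animal 437). The NC animals formed a low set of 3 (431, 432 and 433, up to 1321.1 CPM) and a high set of 3 (437, 438 and 439, from 1551.7 CPM).

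Ldha, the step from pyruvate to lactate, had slightly higher means in both diabetic groups than in NC, with values that overlapped. In NC, Ldha ran from 834.9 CPM through a median of 1012 to 1161.2. In DC it ran from 965.5 through 1083 to 1177.0 CPM, and in DC + Lixi from 1024.0 through 1077 to 1230.8 CPM. The groups overlapped, and 5 of 6 DC animals and 6 of 6 DC + Lixi animals lay above the NC median. NC animal 433 was the lowest of all 18 for both Ldha and Gapdh.

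The mean level of Ldha was 1005 ± 109 CPM in NC, 1084 ± 73.1 CPM in DC and 1097 ± 70.7 CPM in DC + Lixi (SD, n = 6). The fitted difference of DC from NC was 0.11 on the log2 scale (SE 0.07, edgeR adjusted p = 0.282), with an interval of the fold from 0.979 to 1.19. This value was 0.22 with RNA integrity as a covariate (SE 0.10, edgeR, unadjusted p = 0.0440, adjusted p = 0.329). It was 0.06 without NC animal 433 (edgeR adjusted p = 0.531). In DC + Lixi it was 0.13 against NC (SE 0.07, edgeR adjusted p = 0.307) and 0.02 against DC (SE 0.07, edgeR adjusted p = 0.935). Without NC animal 433 the difference of DC + Lixi from NC was 0.08. Without NC animal 437 it was 0.17 (edgeR, unadjusted p = 0.0138, adjusted p = 0.145), and that of DC from NC was 0.15 (edgeR, unadjusted p = 0.0247, adjusted p = 0.107). None passed the threshold. The difference of DC + Lixi from DC, the smallest, changed sign with the scaling of the libraries. It was -0.01 when they were scaled by their totals alone.

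**Figure D1:**
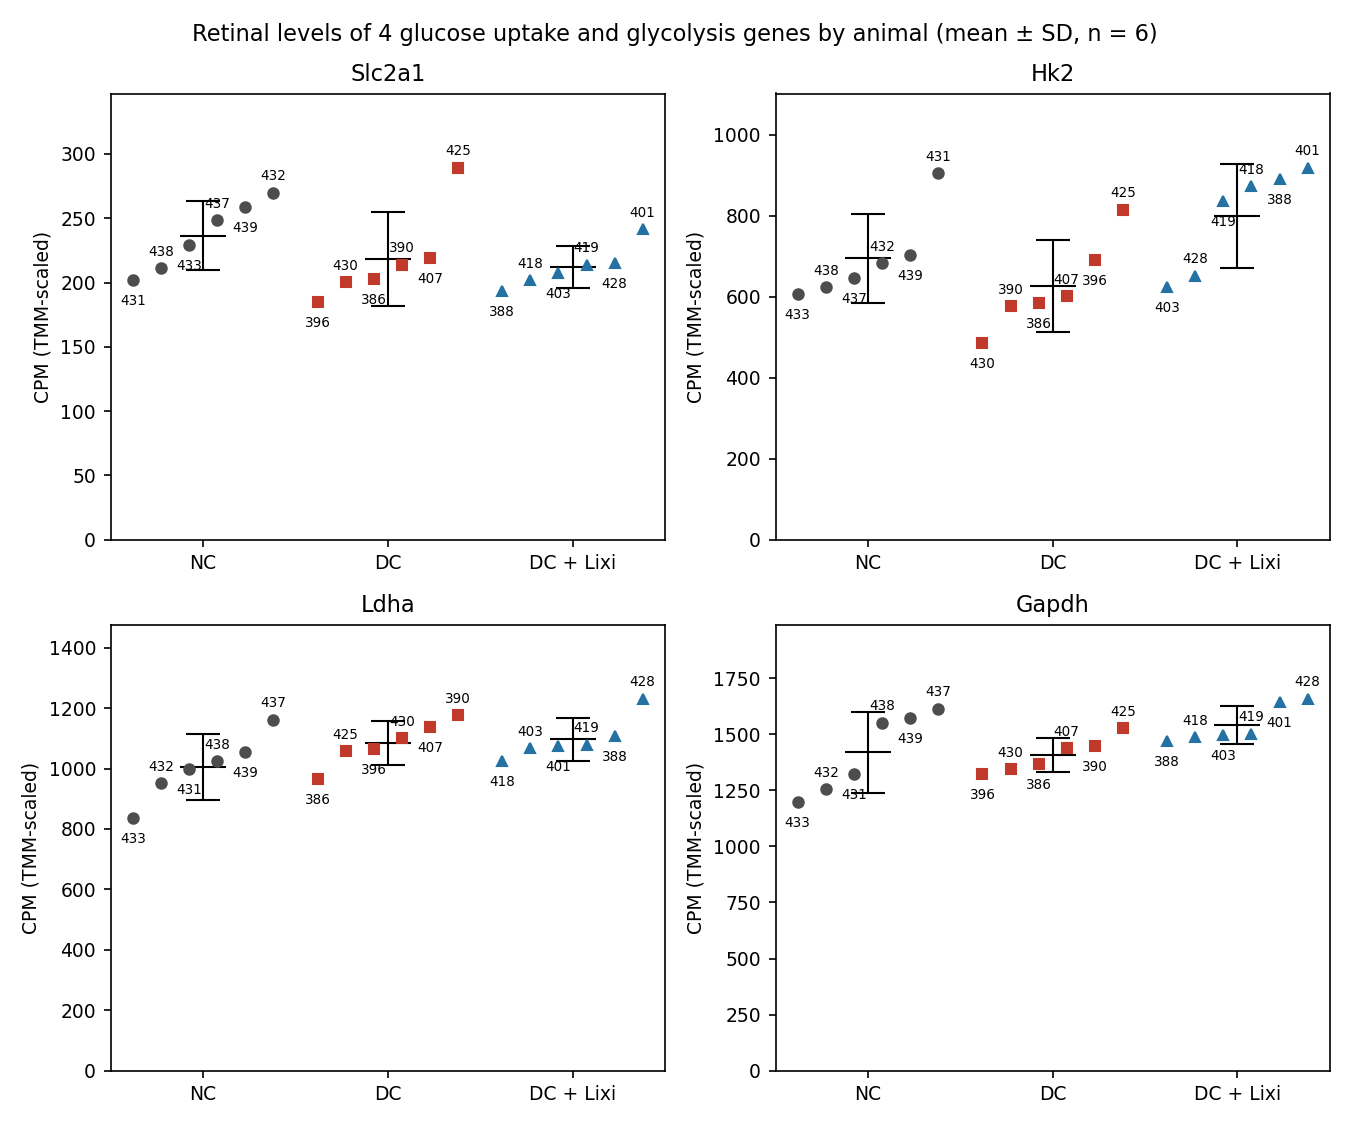
Levels of the 4 genes in CPM (vertical axes, from 0) in each retina, with animal numbers beside the points and the group mean ± SD as bars (n = 6 per group). The 3 groups overlap in every panel, DC animal 425 stands apart for Slc2a1 at 289.2 CPM, and 4 of the 6 DC + Lixi animals lie above every DC animal for Hk2.

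Over the 4 genes and 3 comparisons, 0 of 12 differences passed the threshold and 1, that of Hk2 between DC + Lixi and DC, had an unadjusted p under 0.05. DESeq2 and limma-voom also called 0 of 12 and gave 1 unadjusted p under 0.05 each. The edgeR fits with library totals alone, with only the groups compared and with RNA integrity as a covariate gave 2 each. With RNA integrity the 2 were Ldha in DC vs NC and Ldha in DC + Lixi vs NC (log2 fold change 0.15). Hk2 in DC + Lixi vs DC was not among them, and neither Ldha difference passed the threshold. Without NC animal 431, 433 or 439, or without DC + Lixi animal 403, there were also 2. Without NC animal 437 or without DC animal 425 there were 4. With only the groups compared, Gapdh in DC + Lixi vs DC had an unadjusted edgeR p of 0.0179 (adjusted p = 0.366). For DC vs NC, 0 of 4 genes were called where 16% of all genes tested were called. For DC + Lixi vs NC, 0 of 4 were called against a background of 1.54%, and for DC + Lixi vs DC, 0 of 4 were called against a background of 0%. In this last comparison 2048 genes had an unadjusted p under 0.05, DESeq2 called 92 and limma-voom called 0. No gene of the 4 separated any pair of groups in CPM, while the groups did not overlap for 5.77%, 2.12% and 0.623% of all genes in the same 3 comparisons.

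The median log2 fold change of the 4 genes was -0.06 for DC vs NC, 0.12 for DC + Lixi vs NC and 0.07 for DC + Lixi vs DC, and over all genes tested it was 0.00 in each. The DC and NC animals each enter 2 of the 3 comparisons, so the comparisons are not independent of each other. In 11 of 12 differences the 95% interval of the fold lay within 1.5-fold in either direction, the exception being Hk2 in DC + Lixi vs DC at up to 1.53-fold. A missed threshold does not show that levels were equal.

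**Figure D2:**
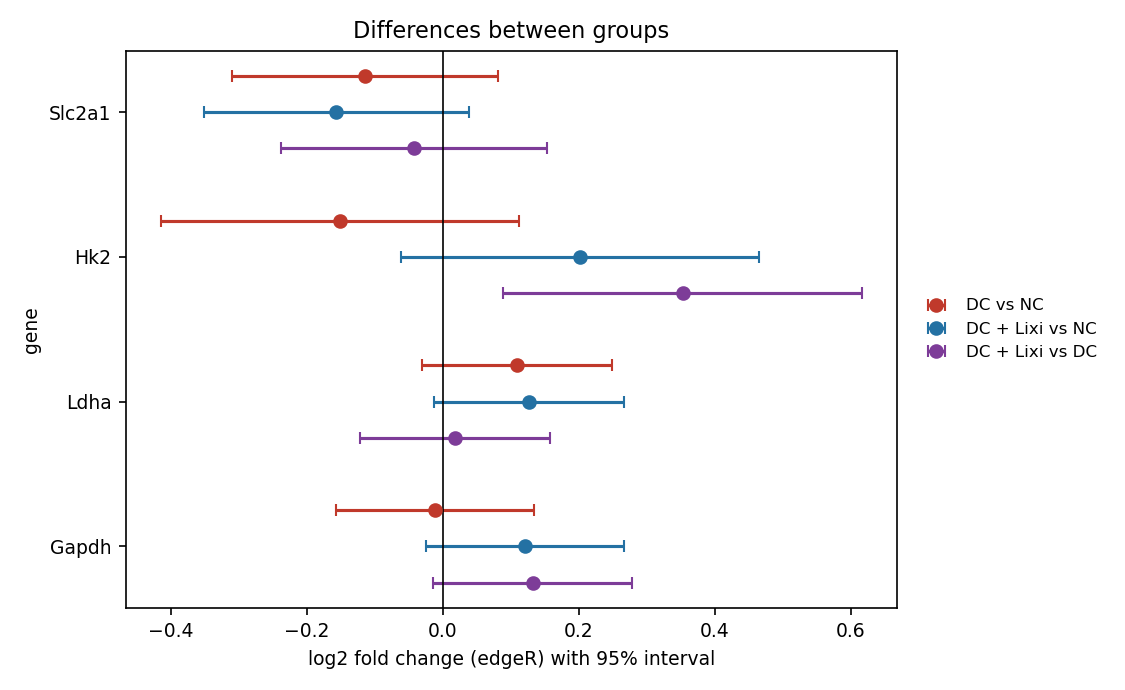
Fitted log2 fold changes (horizontal axis, points) with 95% intervals (bars) from edgeR for each gene and each of the 3 comparisons. The interval of Hk2 in DC + Lixi vs DC, around 0.35, is the only one of 12 that leaves out 0, and its adjusted p is 0.291.

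Ratios within a library do not depend on how libraries are scaled. The following ratios of FPKM were chosen after the levels had been seen and are given as descriptions, with no test. Hk2 stood at 1.42 ± 0.353 times the level of Slc2a1 in NC, 1.37 ± 0.211 times in DC and 1.79 ± 0.312 times in DC + Lixi (SD, n = 6). The ratio was between 1.43 and 2.18 in DC + Lixi and between 1.15 and 1.77 in DC. The mean ratio was thus highest in DC + Lixi, with overlap between the groups, and NC animal 431 stood at 2.13 where the NC median was 1.27.

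Gapdh stood at 2.25 ± 0.133 times the level of Ldha in NC, 2.08 ± 0.160 times in DC and 2.25 ± 0.119 times in DC + Lixi. This was the narrowest of the ratios, between 1.95 and 2.45 over the 18 libraries. Gapdh stood at 15.6 ± 2.50 times the level of Slc2a1 in NC, 16.8 ± 1.65 times in DC and 18.7 ± 0.871 times in DC + Lixi. Ldha stood at 4.99 ± 0.811 times the level of Hk2 in NC, 6.05 ± 1.19 times in DC and 4.80 ± 1.05 times in DC + Lixi. The ratios of each of the 4 pairs overlapped between the groups.

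**Figure D3:**
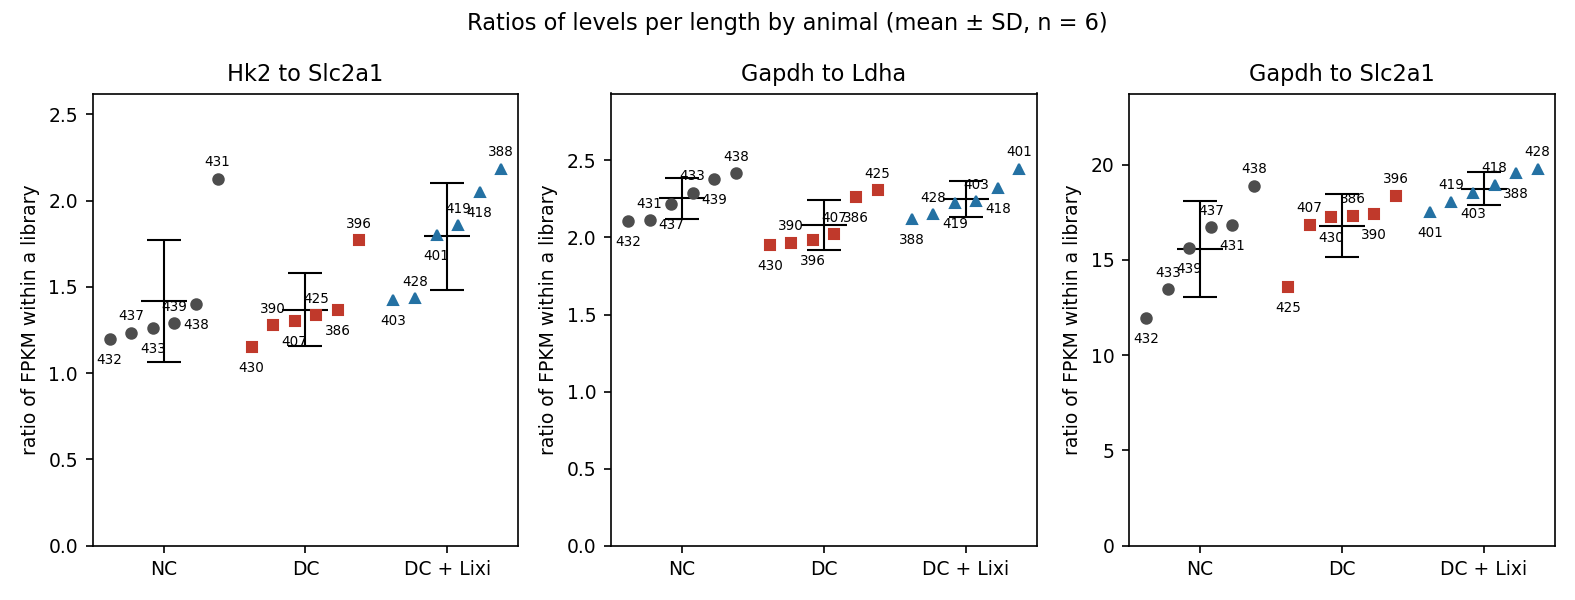
Ratios of FPKM within each library (vertical axes, from 0) for Hk2 to Slc2a1, Gapdh to Ldha and Gapdh to Slc2a1, with animal numbers and the group mean ± SD (n = 6). Hk2 to Slc2a1 averages 1.79 in DC + Lixi and 1.37 in DC, and the points of the groups overlap in all 3 panels.

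The variation among animals of a group was examined next, with the group means removed from log2 CPM. The SD within groups was 0.17 for Slc2a1, 0.24 for Hk2, 0.13 for Gapdh and 0.12 for Ldha on the log2 scale, against a median of 0.14 over all genes tested. Ldha and Gapdh varied together among animals. Their Pearson correlation was 0.73 over the 18 libraries (permutation test within groups, p = 0.00178, adjusted p = 0.0107 over 6 pairs), and Spearman's rho was 0.61 (p = 0.0228, permutation test, adjusted p = 0.137). Without NC animal 433 and DC + Lixi animal 428, the 2 farthest from the median of Ldha, r was 0.56 (permutation p = 0.0631), so the relation rested in part on these animals. It was 0.89 within NC, 0.27 within DC and 0.61 within DC + Lixi.

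The other 5 pairs did not pass the test. Slc2a1 and Gapdh gave r = 0.39 and rho = 0.47 (permutation p = 0.123 and 0.0879, adjusted p = 0.369 and 0.264). Within groups r was 0.92 in DC, 0.79 in DC + Lixi and 0.08 in NC. Without DC animal 425 and NC animal 432, the 2 farthest from the median of Slc2a1, r was 0.57 (permutation p = 0.0777, adjusted p = 0.233). This was close to the 0.56 of Ldha and Gapdh without their own 2 farthest animals. Slc2a1 and Hk2, the first steps of the pathway, gave r = 0.21 (permutation p = 0.445, adjusted p = 0.889) and rho = 0.09. This turned to -0.20 without DC animal 425 and NC animal 432. The 3 remaining pairs lay between -0.13 and 0.08.

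**Figure D4:**
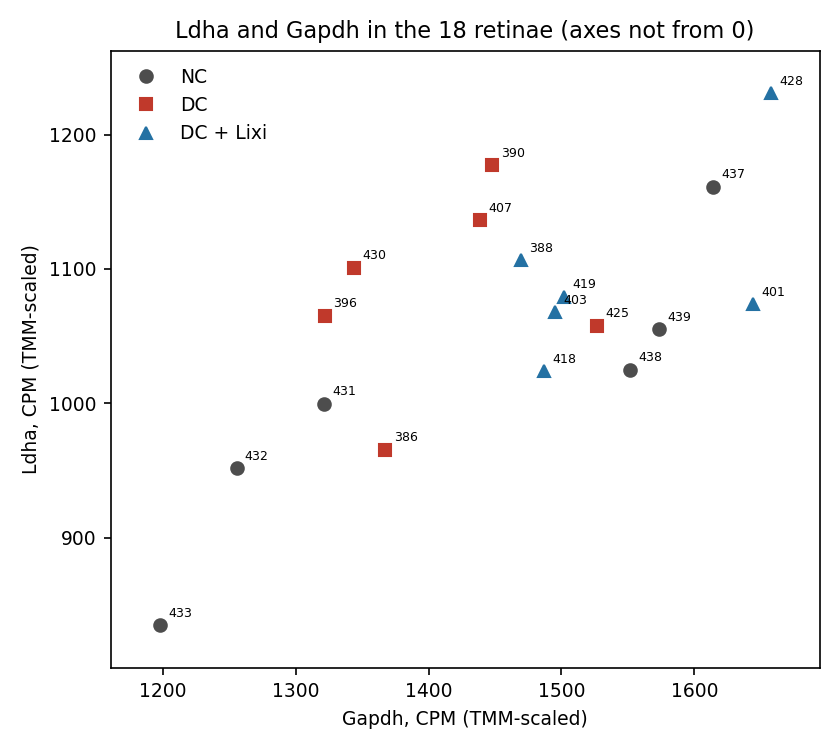
Level of Ldha (vertical axis, CPM) against that of Gapdh (horizontal axis, CPM) in the 18 retinae, 1 point per animal with its number; the axes do not start at 0. NC animal 433 is lowest in both genes and DC + Lixi animal 428 highest in both, and r with group means removed is 0.73 with these 2 animals and 0.56 without them.

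The levels of the 4 genes were also set beside RNA concentration and RNA integrity, in 8 relations added after the data had been seen. Gapdh gave r = 0.55 with RNA concentration (permutation p = 0.0413, adjusted p = 0.309) and rho = 0.53 (p = 0.0546), and without NC animals 431 and 432 r was 0.44. Within groups it was 0.81 in NC, 0.71 in DC and 0.02 in DC + Lixi. The NC animals 431, 432 and 433, which were low in Gapdh, had 212, 234 and 238 ng/µl, the lowest of their group. Ldha gave r = 0.46 with RNA concentration (permutation p = 0.0911, adjusted p = 0.309) and rho = 0.54 (p = 0.0364). Slc2a1 gave r = 0.16 with RNA concentration, and Hk2 gave 0.17, which was 0.42 without NC animals 431 and 432.

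With the RNA integrity number, r was -0.19 for Slc2a1, -0.13 for Hk2, -0.23 for Gapdh and -0.34 for Ldha. Without DC animal 386 and DC + Lixi animal 428, the 2 farthest from the median integrity, it was -0.50 for Hk2 (permutation p = 0.0599), -0.18 for Slc2a1, -0.07 for Gapdh and 0.01 for Ldha. Within DC, r with Hk2 was -0.75, within NC 0.21 and within DC + Lixi -0.05. The other genes were also negative within DC, at -0.62 for Slc2a1, -0.54 for Gapdh and -0.29 for Ldha. DC animal 425, the highest of DC in Slc2a1, Hk2 and Gapdh, had the lowest integrity number of DC, 9.2. It also had the smallest library total of all, 28311699 counts. None of the 8 relations passed after adjustment. Whether RNA yield had a part in the shared movement of Gapdh and Ldha was not tested.

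Finally, the profile of each gene across the 18 libraries was compared with those of the 16523 other genes tested, by Pearson's r of log2 CPM, as a description over libraries that share their groups and scaling. For Gapdh, Ldha was the 96th nearest gene (r = 0.70), and for Ldha, Gapdh was the 102nd nearest. Every other pairing of the 4 genes was ranked between 3319th and 10340th, so by this measure Slc2a1 and Hk2 followed neither each other nor the 2 dehydrogenases closely. The gene nearest to Hk2 was ENSRNOG00000009773 (r = 0.91, mean level 395 FPKM), and the gene nearest to Slc2a1 was ENSRNOG00000021276 (r = 0.90, mean level 1.83 FPKM). The highest r was 0.87 for Ldha and 0.86 for Gapdh.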

How the data were processed

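The authors aligned single-end 50 bp reads, counted them against a rat gene model in Array Studio and tested them with DESeq2, a tool that the submitters' processing notes also name. No aligner, build or annotation is given in the sources used here. The authors deposited estimated counts per gene, of which 26.0% of those above 0 are not whole (tolerance 1e-06). They also deposited FPKM values, which in the 4 genes equal the count divided by a gene model length (2.577 kb for Slc2a1, 5.432 kb for Hk2, 1.6 kb for Ldha and 1.002 kb for Gapdh) and by the library's total count, scaled as the unit requires. The deposited sample sheet gives the count of alignments per library (49487399 to 68360387), the RNA integrity number, which is a score, and the RNA concentration in ng/µl. No count was given in 46805 of 587214 cells of the table. Of these, 4081 have an FPKM above 0 and 1504 were restored from it, and none belongs to the 4 genes.

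Tests had been planned for whole counts, so estimated counts were rounded, and edgeR 4.0.16 (R 4.3.3) was used. Low genes were removed by filterByExpr, libraries were scaled by TMM, and the groups were compared by the quasi-likelihood test in 1 fit over 18 libraries with 15 residual degrees of freedom. P-values were adjusted by Benjamini-Hochberg over the 16524 genes tested, with a threshold of 0.05. The common biological coefficient of variation was 14.2%. CPM are TMM-scaled. Correlations used log2 CPM with group means removed (prior count 2) and 100000 permutations within groups, two-sided (scipy 1.17.1). The edgeR fit alone was tried on simulated counts with differences set between DC and NC, and its outcome is not reported here. The correlations, permutation tests and motif search were not tried in this way. Alternatives were RLE size factors, totals only, fits of only the groups compared, no filter, limma-voom (limma 3.58.1), DESeq2 1.42.0, missing counts set to 0, limma-trend with log2(FPKM + 1) or log2(FPKM + 0.1), RNA integrity as a covariate, and leaving out each library. Promoters were taken from RefSeq (GRCr8) by symbol, and 4 of 4 genes matched.

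The genes named are the 4 chosen genes and, by a rule on likeness, the gene nearest to each in r, of which at most 2 gene numbers are printed. The genes and lists were chosen with earlier results of these data known. Lists of further glycolysis genes and of retinal cell type markers had been planned, but the reference tables matched none of the gene numbers, so these lists were not used here. Animals, not cells or reads, are the replicates.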

Additional observations from a re-analysis of the deposited data

Results flagged for a closer look

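Among 30 sets of 6 values (levels and ratios of the 4 genes by group, and library measures), 5 held a sample far from the rest, where chance gives about 1 in 20. Slc2a1 was 289 CPM in DC animal 425, and the next DC animal was at 219.4 CPM. Hk2 was 905 CPM in NC animal 431, and the next NC animal was at 704.0 CPM. The FPKM ratio of Hk2 to Slc2a1 was 2.13 in the same NC animal 431, against 1.40 in the next, and 1.77 in DC animal 396, against 1.37 in the next. The FPKM ratio of Gapdh to Slc2a1 was 13.6 in DC animal 425, the lowest of its group, against 16.9 in the next. The 5 sets thus concern 3 animals, and the ratios repeat the levels they are made from.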

How the results depend on the processing

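Of 336 values of the 12 gene differences under other settings, 322 kept their direction and side of the threshold. Direction changed in 13, each without passing the threshold. The remaining 1 passed it, that of Slc2a1 in DC vs NC without DC animal 425. The 336 include fits that left out an animal of the group outside the comparison. Such fits hardly move the fold, so their agreement in direction was largely set in advance. Leaving out each library in turn gave -0.211 to -0.0716 for Slc2a1 in DC vs NC, -0.0559 to 0.0287 for Gapdh in DC vs NC, -0.0849 to 0.0549 for Slc2a1 in DC + Lixi vs DC and -0.0179 to 0.0443 for Ldha in DC + Lixi vs DC. With RNA integrity as a covariate Gapdh in DC vs NC was 0.0678 and Ldha in DC + Lixi vs DC was -0.0698. Ldha in DC + Lixi vs DC was -0.0107 with library totals only, -0.00968 with log2(FPKM + 1) and -0.00969 with log2(FPKM + 0.1). The 108 values of the group levels moved by less than 1 SD. Most of them left out 1 of 6 animals, which cannot move a mean by as much as 1 SD, so for these the bound shows nothing.

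Counts of all genes called were less steady. DC vs NC had 2652 and 0 with RNA integrity as a covariate, and 1485 to 3531 over the left-out libraries. DC + Lixi vs NC had 254 (157 higher, 97 lower), 433 with totals only (139 higher, 294 lower), 121 without the filter, 803 with DESeq2, 116 with limma-voom and 45 with RNA integrity, and 27 to 611 over the left-out libraries. Its split was 76 higher and 109 lower with only the groups compared, 71 and 236 with log2(FPKM + 1), and 90 and 238 with log2(FPKM + 0.1). DC + Lixi vs DC had 0, and 92 with DESeq2, and 0 to 5 over the left-out libraries, with 5 without DC animal 425.

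Among the correlations, Slc2a1 with Hk2 was -0.20 without the 2 farthest libraries, Slc2a1 with Ldha was -0.0246 with totals only and with log2(FPKM + 1), and Hk2 with Gapdh was -0.126 and -0.125 with these and -0.10 without the 2 farthest libraries. Ldha with Gapdh was 0.56 without them and no longer passed (permutation adjusted p = 0.233). The cause of these shifts was not tested. RNA integrity differed between DC and each other group (with no overlap against NC), so quality and group cannot be fully told apart in DC vs NC or in DC + Lixi vs DC. RNA concentration was lower in NC than in each diabetic group, and no fit used it as a covariate. Yield and group thus cannot be fully told apart in DC vs NC or in DC + Lixi vs NC. No paired analysis was possible because the groups hold different animals with no shared numbers. The alternatives for the list of further glycolysis genes were not run, since no gene number could be matched to a symbol. Spread among 6 animals per group, not the 5523 or more counts per gene and library, limited the precision.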

Other observations

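The Hk2 level of the 6 DC + Lixi animals was set beside their place between the NC mean (0) and the DC mean (1) over the 2652 genes called in DC vs NC, after both had been seen. Animals 401, 419 and 418 had places of 0.173, 0.290 and 0.425 and Hk2 levels of 918.3, 837.2 and 873.2 CPM. Animal 388 had a place of 0.715 and 890.4 CPM. Animals 403 and 428 had places of 0.912 and 0.959 and the lowest Hk2 levels of the group, 623.6 and 651.9 CPM. Their RNA integrity numbers were 9.4 and 8.4, the highest and the lowest of the group. These are values of 6 animals, and the relation was not tested. The place is itself set by differences between the NC and DC animals, so it is no independent measure of the group. RNA integrity did not overlap between these groups, and with it as a covariate 0 genes were called in DC vs NC. Diabetes and RNA quality therefore cannot be told apart in the place.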
